A study of Mus musculus with 10 samples.

Results

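The bone morphogenetic protein (BMP) pathway was examined in the mouse heart after endurance training through 10 genes, which were given as a fixed list and found by Ensembl identifier: the ligands Bmp2, Bmp4 and Bmp6, the receptors Bmpr1a and Bmpr2, the receptor-activated SMADs Smad1, Smad5 and Smad9, and the target genes Id1 and Id3. All 10 were among the 15454 genes with enough reads to be tested, out of 56748 identifiers in the count tables. RNA came from whole hearts, atria and ventricles together, of wild-type C57BL/6 mice that were 8 weeks old when purchased. The 5 training mice (labelled Exercise) ran under force on a treadmill at 15 m/min for 120 min per day on 5 days per week over 8 weeks, after a week of acclimatization. The 5 sedentary mice (labelled Control) were of the same age and did not train. Each heart gave 1 poly-A, strand-specific library, with between 29461697 and 39431030 reads on genes. The question was which steps of the pathway differed between training and sedentary hearts, and whether the Id targets followed the ligands.

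BMP ligands are secreted dimers that join type I receptors such as Bmpr1a with type II receptors such as Bmpr2. The type I receptor then phosphorylates Smad1, Smad5 and Smad9, which enter the nucleus with Smad4 and switch on target genes, among which the Id genes respond directly and quickly. Id proteins bind basic helix-loop-helix transcription factors and keep them off DNA. In the heart the pathway is best known for the formation of chambers and valves in the embryo, and in adult vessels for signaling in endothelium. Messenger RNA levels of these genes do not show how much SMAD protein is phosphorylated.

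Calls fell on some genes of the pathway and not on others, and the steps were not tested against each other. Bmp2, Bmp4, Smad5 and Smad9 were higher in the training hearts, by log2 fold changes of 0.60, 0.45, 0.15 and 0.38. Bmp6, both receptors, Smad1, Id1 and Id3 did not pass the test, and the estimate of Id1 was below 0. Genes were called at a false discovery rate (FDR) below 0.1, which here is the p-value of edgeR's quasi-likelihood test after Benjamini-Hochberg adjustment over all tested genes. Of the 10 genes 4 were called, all of them higher, where 7.01% of all tested genes were called, with 2.75% higher and 4.26% lower. The list was chosen with earlier results of these data known, so these shares describe it and do not test it. The median log2 fold change of the 10 genes was 0.11, with 8 above 0, beside 0.00026 over all tested genes, of which 7738 were above 0 and 7716 below.

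**Figure D1:**
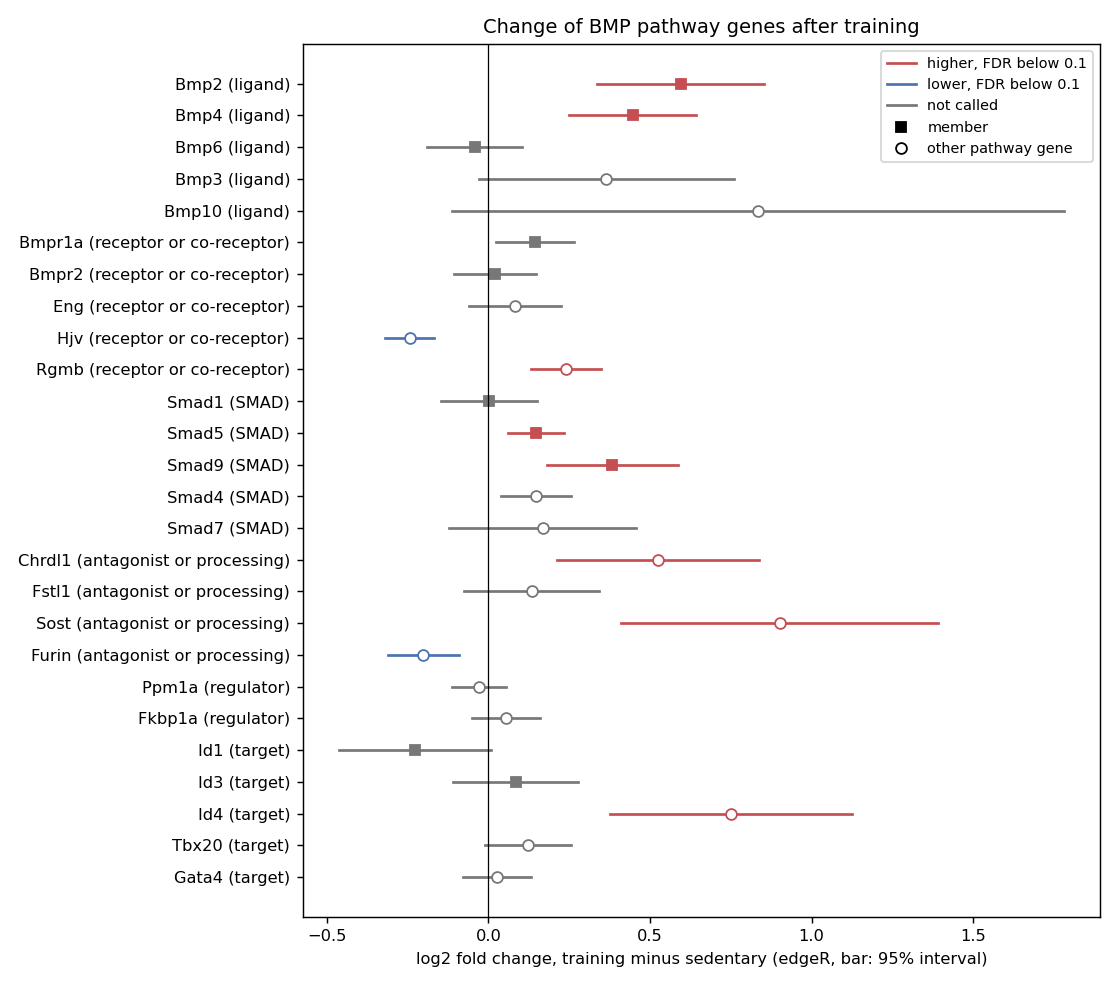
Log2 fold change (x axis, training minus sedentary hearts, 5 of each) of the 10 BMP pathway genes (squares) and of 16 other genes of the pathway (circles), ordered by role, with 95% confidence intervals from edgeR as bars. Bmp2, Bmp4, Smad5 and Smad9 lie to the right of 0 and were called higher, whereas the intervals of Id1 (−0.462 to 0.00871) and Id3 (−0.108 to 0.277) span 0.

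The hearts were not alike in the level of atrial marker genes. Of 5 atrial markers (Myl7, Myl4, Sln, Nppa and Dkk3), all were above 0 in log2 fold change and Sln and Dkk3 were called higher, and their summed level ranged from 4511 to 6872 CPM (read counts scaled to a common library size) in training hearts and from 2715 to 6362 CPM in sedentary hearts. An atrial score, the mean log2 CPM of these markers centred over all hearts, was 0.35, 0.07, 0.61, 0.40 and 0.09 in training hearts 1 to 5 and 0.33, −0.80, −0.23, −0.11 and −0.71 in sedentary hearts 1 to 5. Sedentary heart 1 thus lay within the training range. Summed cardiomyocyte markers were lower in training hearts without overlap (46085 to 48148 CPM against 48927 to 55612 CPM), with 1 of 5 called lower. Fibroblast markers ranged from 901 to 1107 CPM against 791 to 966 CPM with 2 of 5 called higher, 1 of 7 endothelial and 1 of 5 mural markers were called lower, and no macrophage, epicardial, adipocyte or erythroid marker was called. Liver markers were near 0 in every heart. In whole tissue, fewer cells of a type and less RNA per cell cannot be told apart.

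Levels of different genes were compared as TPM, which the authors' RSEM tables scale by transcript length. Averaged over the 10 hearts, Id1 (34.7 TPM) and Id3 (32.5 TPM) were the most abundant, and each exceeded the other in 5 of 10 hearts. Bmpr1a followed at 19.1 TPM, with no heart overlapping either neighbour in the order. Bmp6 was the most abundant ligand of the list at 12.9 TPM, followed by Bmpr2 at 9.22 TPM and Smad5 at 8.26 TPM, whose ranges ran into each other. Bmp4 (5.32 TPM) and Smad1 (4.87 TPM) could not be ordered, with Bmp4 above Smad1 in 5 of 10 hearts. Smad9 (0.958 TPM) and Bmp2 (0.833 TPM) were the least abundant and overlapped, both below the lowest Smad1 value. Among the 3 listed ligands, those called higher were therefore of lower abundance, and Bmp6, which was not called, was above both. Bmp10, a ligand outside the list, averaged 126 TPM in training and 66.9 TPM in sedentary hearts.

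To show what lies in front of called and uncalled genes, the 250 bases before the transcription start were read from RefSeq promoters (GRCm38.p6) for Bmp4 and Smad9, which were called higher, and Id3, which was not. Of the 10 genes, 8 had an entry, with 10 windows between them. Bmp2 and Id1 had no entry and were not searched. Capitals mark GGCGCC, the core of the GC-rich element that Smad1 and Smad5 bind, and GTCT or its reverse complement AGAC, the SMAD box. The windows are chr14:46390670-46390919 on the minus strand for Bmp4, chr3:54755332-54755581 on the plus strand for Smad9 and chr4:136143572-136143821 on the plus strand for Id3, each written 5′ to 3′ along the gene.
Bmp4: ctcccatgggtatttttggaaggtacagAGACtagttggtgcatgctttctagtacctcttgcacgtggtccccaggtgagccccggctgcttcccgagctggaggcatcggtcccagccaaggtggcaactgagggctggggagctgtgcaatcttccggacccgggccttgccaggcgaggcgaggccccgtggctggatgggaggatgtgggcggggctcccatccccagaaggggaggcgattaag
Smad9: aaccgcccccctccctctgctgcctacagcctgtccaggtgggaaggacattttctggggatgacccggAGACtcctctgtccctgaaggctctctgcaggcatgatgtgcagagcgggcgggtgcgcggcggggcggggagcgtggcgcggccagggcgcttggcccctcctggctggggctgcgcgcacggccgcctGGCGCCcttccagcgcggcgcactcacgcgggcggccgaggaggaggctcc
Id3: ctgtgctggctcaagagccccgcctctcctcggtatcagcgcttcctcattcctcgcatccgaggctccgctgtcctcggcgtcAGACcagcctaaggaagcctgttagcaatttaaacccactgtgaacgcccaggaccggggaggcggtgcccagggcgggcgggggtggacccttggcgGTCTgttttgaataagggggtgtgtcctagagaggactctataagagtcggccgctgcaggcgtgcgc
The Smad9 window holds 1 GGCGCC, whose first base lies 51 bases before the start, and 1 SMAD box 181 bases before it. The Bmp4 window holds 1 SMAD box 222 bases before the start, and the Id3 window holds 2, at 166 and 68 bases. GGCGCC, which reads the same on both strands, was also found in the windows of Bmpr1a and Bmpr2 and in 1 of 3 windows of Smad5, and 9.59% of 32851 promoter windows hold it. GTCT on either strand occurs in 82.9% of those windows. A match describes the letters and does not show binding, and distal enhancers are not covered.

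Bmp2 (ENSMUSG00000027358, chromosome 2 of GRCm39, 133394079 to 133404816, plus strand) encodes a ligand that in the developing heart takes part in atrioventricular and valve formation. Its level was 3.60, 2.81, 3.16, 3.64 and 3.45 CPM in training hearts 1 to 5 and 2.66, 1.81, 2.13, 2.16 and 2.22 CPM in sedentary hearts 1 to 5. Every training heart lay above every sedentary heart, and sedentary heart 1 was the closest to them. The means were 3.33 ± 0.348 CPM and 2.20 ± 0.303 CPM (SD, n = 5 each), a log2 fold change of 0.60 (standard error, SE, 0.12, 95% interval 0.337 to 0.853, edgeR FDR 0.0223). These levels rested on 62 to 127 reads per library.

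Bmp4 (ENSMUSG00000021835, chromosome 14 of GRCm39, 46620250 to 46636745, minus strand), the closest relative of Bmp2, signals through the same receptors. Training hearts 1 to 5 were at 10.0, 9.19, 10.1, 9.52 and 8.56 CPM, and sedentary hearts 1 to 5 at 8.05, 5.49, 6.89, 7.00 and 7.31 CPM. Here too the groups did not overlap, and sedentary heart 1 came closest. The means were 9.48 ± 0.640 CPM and 6.95 ± 0.933 CPM (SD, n = 5 each), with a log2 fold change of 0.45 (SE 0.091, 95% interval 0.251 to 0.644, edgeR FDR 0.0231). Bmp2 and Bmp4 were the genes among the 10 whose groups did not overlap, where 5.06% of all tested genes were separated in either direction with 2.12% upward and 2.94% downward. Over the 10 hearts, Bmp2 and Bmp4 had a Pearson r of 0.92, given as a description because both were called in the same direction.

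Bmp6 (ENSMUSG00000039004, chromosome 13 of GRCm39, 38529065 to 38684280, plus strand), known from iron sensing and from endothelial cells, was not called. Its estimate was smaller than its SE and changed sign with library totals alone (0.0096). Training hearts were at 39.8, 40.9, 40.7, 45.8 and 38.1 CPM and sedentary hearts at 44.9, 45.3, 41.1, 44.8 and 35.6 CPM. The lowest and the second-highest value of all 10 hearts were both sedentary, so the groups were interleaved. The log2 fold change was −0.04 (SE 0.068, 95% interval −0.189 to 0.104, edgeR FDR 0.783), an interval that leaves out changes of the size seen for Bmp2 and Bmp4. 4930579J19Rik and Txndc5 lie on the opposite strand within its bounds, and the counts were taken by strand.

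**Figure D2:**
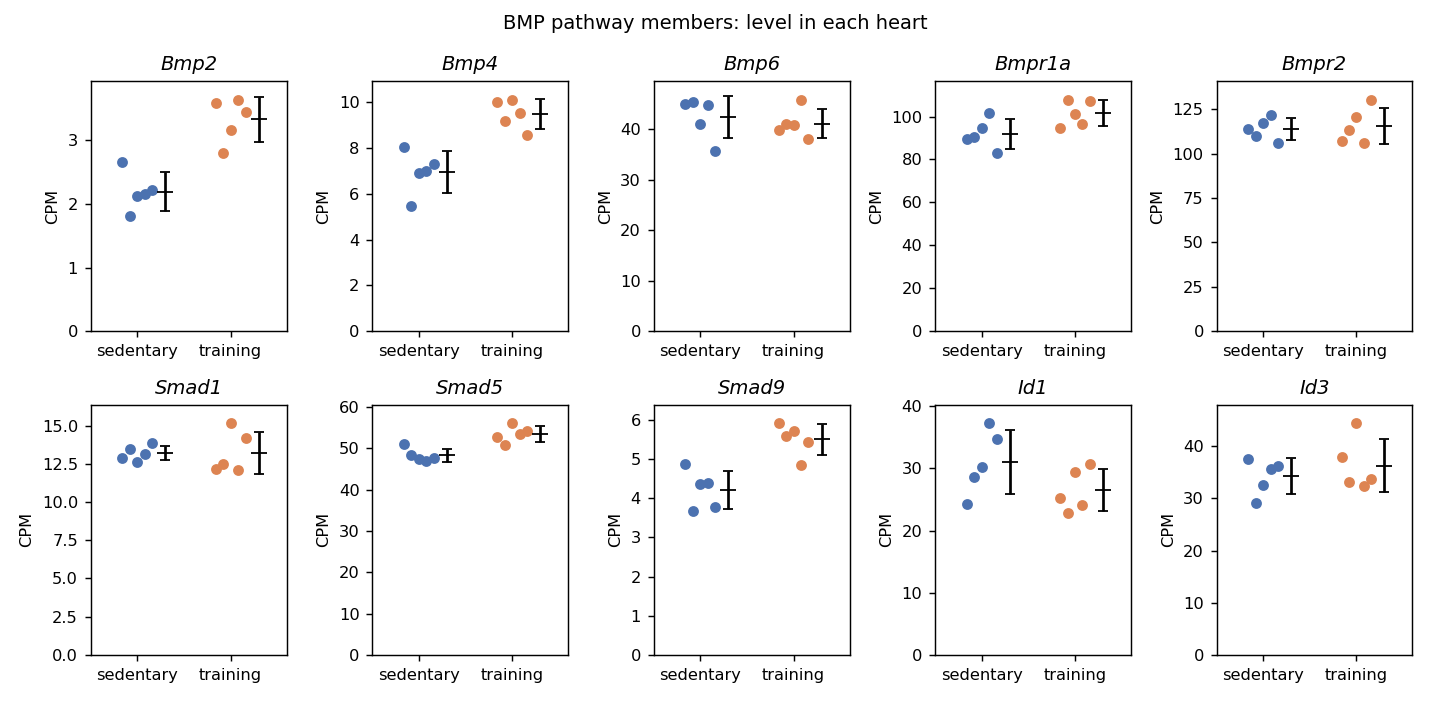
Level in CPM (y axis from 0) of the 10 BMP pathway genes in each of 5 sedentary (blue) and 5 training (orange) hearts, with the group mean and SD beside the points. For Bmp2 and Bmp4 all training hearts lie above all sedentary hearts, for Smad5 and Smad9 4 of 5 do, for Smad1 the training hearts lie on both sides of the sedentary ones, and for Bmp6, Bmpr2, Id1 and Id3 the points are interleaved.

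Neither receptor was called. Bmpr1a (ENSMUSG00000021796, chromosome 14 of GRCm39, 34132687 to 34225379, minus strand), the main type I receptor for Bmp2 and Bmp4, was at 94.5, 108, 101, 96.6 and 107.2 CPM in training hearts and 89.6, 90.4, 94.5, 102 and 82.8 CPM in sedentary hearts. All 5 training hearts were above the sedentary mean, but only 2 were above every sedentary heart. Its log2 fold change was 0.15 (SE 0.056, 95% interval 0.0248 to 0.266, edgeR FDR 0.168), as large as that of Smad5 but with more spread. Without a correction for library composition it was 0.20 (edgeR FDR 0.0803), so its call turned on the scaling.

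Bmpr2 (ENSMUSG00000067336, chromosome 1 of GRCm39, 59802544 to 59918173, plus strand) encodes the type II receptor whose loss is known from pulmonary arterial hypertension. It had means of 116 ± 10.2 CPM in training hearts and 114 ± 6.11 CPM in sedentary hearts (SD, n = 5 each). Its values ran from 106 to 130 CPM against 106 to 122 CPM, a near-complete overlap. The log2 fold change of 0.02 (SE 0.059, 95% interval −0.106 to 0.147, edgeR FDR 0.887) changed sign when training heart 5 or sedentary heart 5 was left out. A gene model on the same strand, Gm38125, overlaps it, and reads that match both were not counted for either.

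Of the 3 receptor-activated SMADs, which carry the signal into the nucleus, 2 were called, and their changes were not tested against each other. Smad9 (ENSMUSG00000027796, chromosome 3 of GRCm39, 54662963 to 54708680, plus strand), also known as Smad8, was the least abundant of them in TPM and had the largest estimate of the 3. It was at 5.92, 5.58, 5.73, 4.86 and 5.44 CPM in training hearts 1 to 5 and 4.87, 3.68, 4.37, 4.38 and 3.78 CPM in sedentary hearts 1 to 5. Training heart 4 fell just under sedentary heart 1, and the other 4 training hearts were above every sedentary heart. The means were 5.50 ± 0.404 CPM and 4.22 ± 0.488 CPM (SD, n = 5 each), a log2 fold change of 0.38 (SE 0.094, 95% interval 0.181 to 0.587, edgeR FDR 0.0438).

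Smad5 (ENSMUSG00000021540, chromosome 13 of GRCm39, 56850797 to 56890190, plus strand) was at 52.7, 50.8, 56.0, 53.5 and 54.2 CPM in training hearts and 51.1, 48.3, 47.4, 47.0 and 47.6 CPM in sedentary hearts. Sedentary heart 1 lay above training heart 2, and otherwise the groups were apart. The means of 53.4 ± 1.93 CPM and 48.3 ± 1.65 CPM (SD, n = 5 each) gave a small log2 fold change of 0.15 (SE 0.040, 95% interval 0.0595 to 0.233, edgeR FDR 0.0649). This call was the least stable: it was lost in 7 of 10 fits that each left out 1 heart (edgeR FDR 0.0380 to 0.150), namely without training heart 3, 4 or 5 or sedentary heart 2, 3, 4 or 5. The change stayed between 0.13 and 0.17 in those 10 fits. Gene models on the same strand overlap Smad5, which leaves its count less certain.

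Smad1 (ENSMUSG00000031681, chromosome 8 of GRCm39, 80065023 to 80126168, minus strand) averaged 13.2 ± 1.37 CPM in training and 13.2 ± 0.482 CPM in sedentary hearts (SD, n = 5 each). The training hearts lay on both sides of the sedentary ones, with 2 above and 3 below all of them. Its log2 fold change was 0.0022 (SE 0.069, 95% interval −0.145 to 0.149, edgeR FDR 0.990).

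Neither target was called. Id1 (ENSMUSG00000042745, chromosome 2 of GRCm39, 152566218 to 152579544, plus strand), the gene most often used as a readout of BMP signaling, was at 25.3, 22.9, 29.4, 24.2 and 30.6 CPM in training hearts 1 to 5. Sedentary hearts 1 to 5 were at 24.2, 28.6, 30.2, 37.3 and 34.8 CPM. All 5 training hearts were below the sedentary mean and 2 were below every sedentary heart, while sedentary heart 1 was low among its group. The means were 26.5 ± 3.36 CPM and 31.0 ± 5.14 CPM (SD, n = 5 each), a log2 fold change of −0.23 (SE 0.11, 95% interval −0.462 to 0.00871, edgeR FDR 0.267). Without sedentary heart 1 it was −0.30 and was called lower (edgeR FDR 0.0847), so that heart decided the call.

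Id3 (ENSMUSG00000007872, chromosome 4 of GRCm39, 135870808 to 135873066, plus strand) was at 37.9, 33.1, 44.4, 32.4 and 33.6 CPM in training hearts and 37.6, 29.1, 32.6, 35.7 and 36.2 CPM in sedentary hearts. Training heart 3 was the highest and sedentary heart 2 the lowest, and the rest were interleaved. The means were 36.3 ± 5.01 CPM and 34.2 ± 3.43 CPM (SD, n = 5 each), with a log2 fold change of 0.08 (SE 0.090, 95% interval −0.108 to 0.277, edgeR FDR 0.655). The upper bounds for Id1 and Id3, 0.00871 and 0.277, lie below the estimates for Bmp2 and Bmp4. The interval of Bmp4 (0.251 to 0.644) still overlaps that of Id3. Id1 and Id3 were themselves only loosely related over the 10 hearts, with a Pearson r of 0.09.

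Whether each target moved less than each ligand was tested as the log2 ratio of target to ligand within each heart, for 6 pairs, a test added after the fold changes were known. The log2 ratio of Id3 to Bmp4 was 1.91, 1.84, 2.13, 1.76 and 1.97 in training hearts 1 to 5 and 2.22, 2.39, 2.23, 2.34 and 2.30 in sedentary hearts 1 to 5. All training hearts were below all sedentary hearts, by 0.37 on average (exact two-sided permutation test, p = 0.00794, the smallest this design allows, adjusted p = 0.0238 over the 6 pairs). The ratio of Id3 to Bmp2 was likewise separated, with a difference of −0.51 (exact permutation p = 0.00794, adjusted p = 0.0238).

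The log2 ratio of Id1 to Bmp2 was 2.80, 3.00, 3.20, 2.71 and 3.13 in training hearts and 3.16, 3.94, 3.79, 4.07 and 3.94 in sedentary hearts. Only sedentary heart 1 reached into the training range, which is the sedentary heart with the atrial score of 0.33. The difference was −0.81 for Id1 to Bmp2 and −0.67 for Id1 to Bmp4 (exact permutation p = 0.0159, adjusted p = 0.0238 for each). Against Bmp6, the ligand that was not called, the differences were −0.18 for Id1 (exact permutation p = 0.341, adjusted p = 0.410) and 0.12 for Id3 (exact permutation p = 0.437, adjusted p = 0.437). Bmp2 and Bmp4 had already been called higher, and Id1 and Id3 had not. Small p-values for the ratios to Bmp2 and Bmp4 were therefore likely before the test. Those ratios describe targets that did not rise in step with these ligands, and are not separate evidence for ligands or targets.

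**Figure D3:**
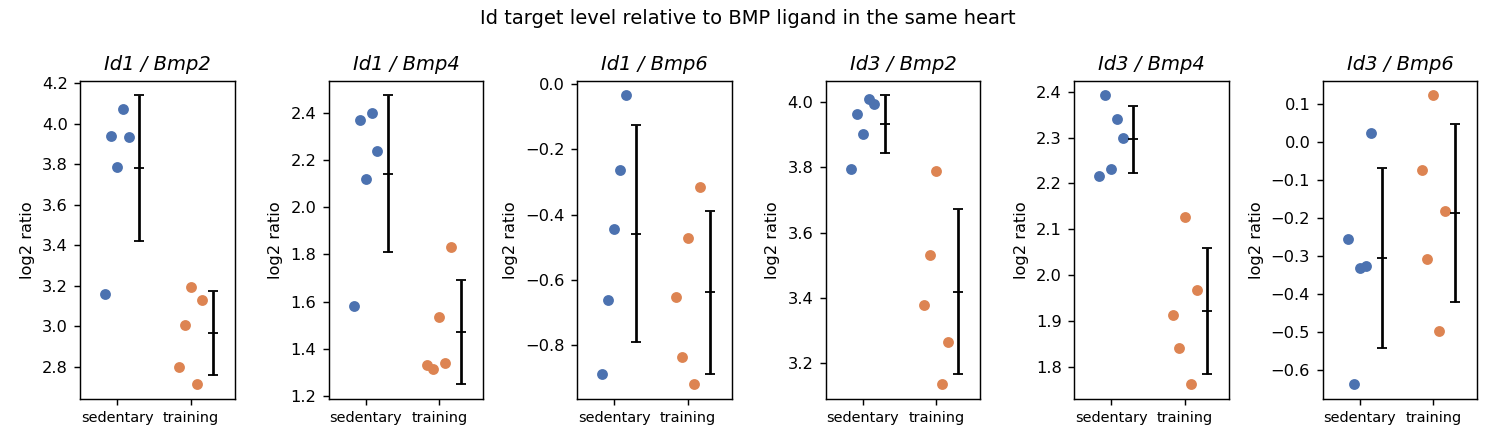
Log2 ratio of target to ligand CPM (y axis) in each heart for the 6 pairs of Id1 or Id3 with Bmp2, Bmp4 or Bmp6, with sedentary hearts in blue, training hearts in orange and the mean and SD in black. The ratios of Id3 to Bmp2 and to Bmp4 are lower in all training hearts than in all sedentary hearts, those of Id1 to Bmp2 and Bmp4 overlap through sedentary heart 1, and those to Bmp6 are interleaved.

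Over all 10 hearts, no target was correlated with a ligand past an adjusted p of 0.05. The closest was Id3 with Bmp4, with Pearson r = 0.61 (permutation p = 0.050, adjusted p = 0.30 over 6 pairs) and Spearman rho = 0.55 (permutation p = 0.104, adjusted p = 0.277). Without the 2 hearts farthest from the median of Bmp4, sedentary heart 2 and training heart 3, r was 0.0060. The size of the pooled r thus depended on these 2 hearts, whose removal also narrows the range of Bmp4. The other 5 pairs had r from −0.49 to 0.40 (permutation, adjusted p from 0.332 to 0.431) and rho from −0.55 to 0.31 (permutation, adjusted p from 0.277 to 0.387). Id1 was negatively related to all 3 ligands in these pooled estimates, at −0.49 with Bmp2, −0.48 with Bmp4 and −0.32 with Bmp6. Without sedentary heart 2 and training heart 3, r of Id1 with Bmp4 was −0.77 (permutation p = 0.0375 before adjustment). Pooled values include the difference between the group means. After removal of each group's mean, r of Id1 was −0.14 with Bmp2, −0.13 with Bmp4 and −0.47 with Bmp6.

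Once each group's mean was removed, Id3 and Bmp4 did vary together between hearts of the same group, with r = 0.78 (exact permutation of hearts within groups, p = 0.00257, adjusted p = 0.0154 over 6 pairs). This r stayed between 0.69 and 0.88 when each heart was left out in turn, and was 0.69 without both sedentary heart 2 and training heart 3. The other 5 pairs did not pass (exact permutation, adjusted p from 0.537 to 0.794). The order of the hearts was not the same for both genes: among training hearts 4, 2 and 5, Bmp4 was 9.52, 9.19 and 8.56 CPM while Id3 was 32.4, 33.1 and 33.6 CPM. The higher Bmp4 of the training group came without a called difference in Id3. Sedentary heart 2 had the lowest Bmp4, Id3 and atrial score, and training heart 3 the highest of all 3 values. The part of atrial content in this relation was not tested.

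**Figure D4:**
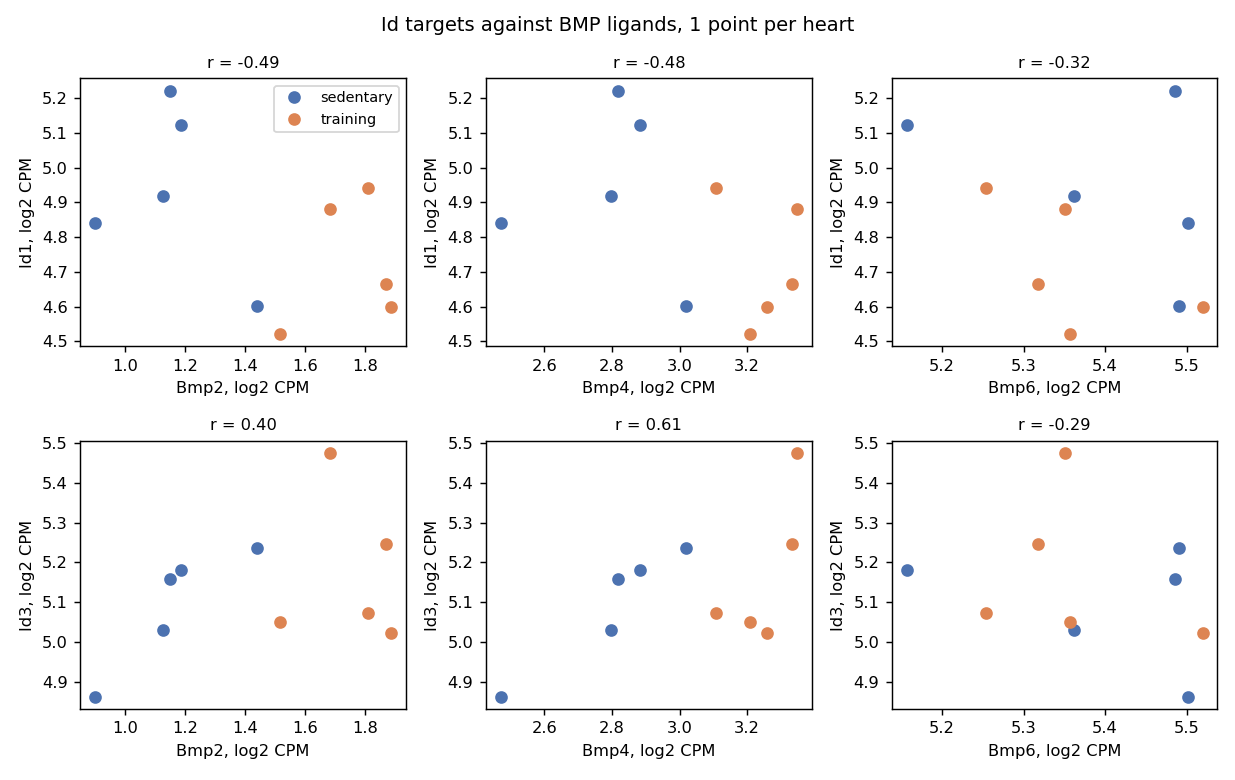
Id1 (top) and Id3 (bottom) against Bmp2, Bmp4 and Bmp6, all as log2 CPM, with 1 point for each sedentary (blue) and training (orange) heart and the Pearson r over 10 hearts above each panel. In the panel of Id3 and Bmp4 (r = 0.61) the sedentary points rise from left to right, the 2 training hearts with the most Bmp4 have the most Id3 while the other 3 are nearly level, and the training points lie further right.

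The calls depended on how the atrial markers were treated. Sedentary heart 1, whose atrial score of 0.33 was close to that of training hearts 1 and 4, had the highest Bmp2, Bmp4, Smad5 and Smad9 of the sedentary group. Sedentary heart 2, with the lowest score, was the lowest of all hearts for Bmp2, Bmp4 and Smad9. For Smad5 it was the second highest sedentary heart (48.3 CPM), though sedentary hearts 3 to 5 were close to it at 47.0 to 47.6 CPM. Training heart 4, with a score of 0.40, was the lowest training heart for Smad9 (4.86 CPM). How closely the genes followed the score from heart to heart was not tested. With the atrial score as a covariate in the edgeR fit, none of the 10 genes was called. The log2 fold changes were then 0.41 for Bmp2 (edgeR FDR 0.347), 0.26 for Bmp4 (edgeR FDR 0.388), 0.10 for Smad5 (edgeR FDR 0.559) and 0.22 for Smad9 (edgeR FDR 0.522), all still above 0. Id1 was at −0.14 and Id3 at −0.09 in that fit. Over all tested genes the covariate lowered the number called from 1084 to 56. The score itself differed between the groups, so atrial content and training cannot be fully told apart in these hearts.

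**Figure D5:**
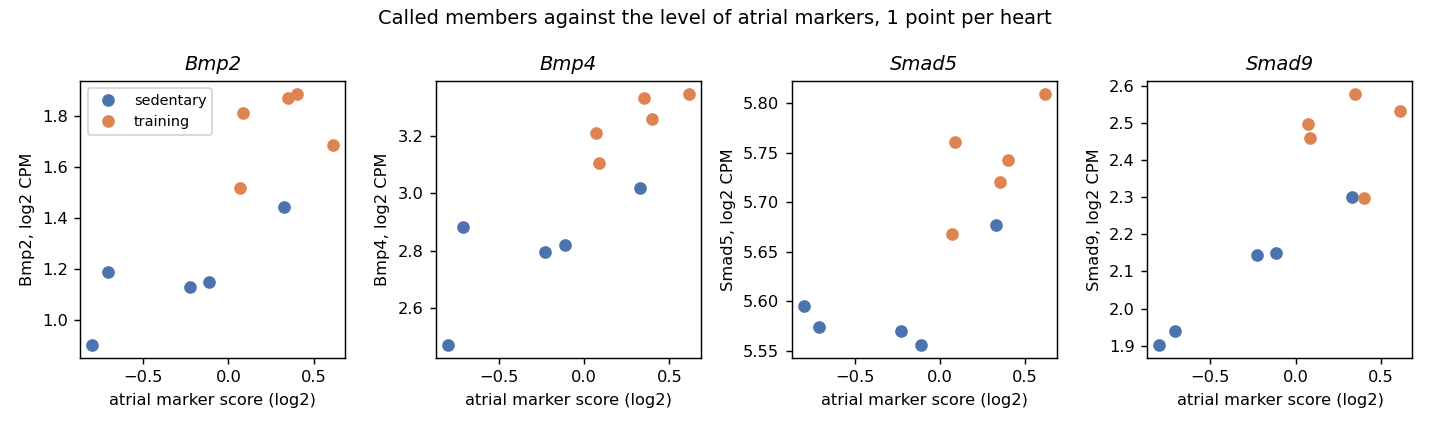
Log2 CPM of Bmp2, Bmp4, Smad5 and Smad9 (y axes) against the atrial marker score (x axis, log2 scale, centred), with 1 point per sedentary (blue) or training (orange) heart. Sedentary heart 1, at a score of 0.33, is the highest sedentary heart in each panel, and sedentary heart 2, at −0.80, is the lowest of all hearts for Bmp2, Bmp4 and Smad9.

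The wider pathway was taken from a list of 62 further genes, of which 55 could be tested. Of these, 4 were called higher (Rgmb, Chrdl1, Sost and Id4) and 2 lower (Hjv and Furin). Over all tested genes 7.01% were called, with 2.75% higher and 4.26% lower. The 55 had a median change of 0.09 on the log2 scale, and 44 of them (80%) lay above 0, beside 50.1% of all tested genes. This list too was chosen with earlier results of these data known, so these shares are a description. The 7 that were not tested had at most 15 reads in any library.

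None of the 7 other ligands tested was called, although 6 were above 0, with a median of 0.36. Bmp10, a heart-specific ligand made mainly in the atria of the adult, was not called either. It was at 467, 331, 745, 494 and 542 CPM in training hearts 1 to 5 and 475, 70.3, 317, 489 and 94.0 CPM in sedentary hearts 1 to 5. The 2 low values belonged to sedentary hearts 2 and 5, the hearts with the lowest atrial scores. The log2 fold change of 0.83 had a wide interval (SE 0.44, 95% interval −0.113 to 1.78, edgeR FDR 0.314) and was −0.30 with the atrial score as a covariate (edgeR FDR 0.770). Bmp3, a ligand that can oppose other BMPs, had a log2 fold change of 0.36 (edgeR FDR 0.287).

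Among 9 other receptors and co-receptors, the repulsive guidance molecules Rgmb and Hjv moved in opposite directions. Hjv (hemojuvelin, ENSMUSG00000038403, chromosome 3 of GRCm39), a co-receptor for Bmp6 in iron control that is abundant in striated muscle, was at 235, 227, 224, 239 and 240.0 CPM in training hearts and 276, 274, 279.9, 274 and 275 CPM in sedentary hearts. Every training heart was below every sedentary heart, and the log2 fold change was −0.24 (SE 0.035, edgeR FDR 0.00705). Rgmb (ENSMUSG00000048027, chromosome 17 of GRCm39), a co-receptor for Bmp2 and Bmp4, ranged from 28.4 to 30.2 CPM in training hearts and from 22.1 to 26.1 CPM in sedentary hearts, a log2 fold change of 0.24 (SE 0.050, edgeR FDR 0.0237). Hjv and Rgmb were called in all 10 fits that left out 1 heart. With the atrial score as a covariate, Hjv was the only gene of the 55 called (−0.24, edgeR FDR 0.0908), and Rgmb was not (0.19, edgeR FDR 0.337). Eng, the endothelial co-receptor endoglin, had a log2 fold change of 0.08 (edgeR FDR 0.538).

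None of the 3 other SMADs was called by edgeR, and all were above 0. Smad4, the shared partner, had a log2 fold change of 0.15 (SE 0.051, edgeR FDR 0.126). It was called under DESeq2's Wald test (0.15, Benjamini-Hochberg adjusted p = 0.0744), with library totals alone (0.20, edgeR FDR 0.0721) and without training heart 1 (0.18, edgeR FDR 0.0752). The inhibitory Smad7 had 0.17 (SE 0.14, edgeR FDR 0.534). Of 16 antagonists and processing enzymes tested, Chrdl1, Sost and Furin were called. Chrdl1, a chordin-like protein that binds BMPs, was at 4.71 ± 0.863 CPM in training and 3.28 ± 0.581 CPM in sedentary hearts (SD, n = 5 each), a log2 fold change of 0.52 (SE 0.15, edgeR FDR 0.0651), and lost its call in 5 of 10 fits with 1 heart left out. These were the fits without training heart 3 or 4 or sedentary heart 2, 3 or 5. With the atrial score as a covariate it was 0.23 (edgeR FDR 0.663).

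Sost, which encodes sclerostin and is best known as an inhibitor of Wnt signaling in bone, was at 5.83, 5.61, 9.13, 9.56 and 6.67 CPM in training hearts and 4.27, 2.89, 5.03, 2.08 and 5.34 CPM in sedentary hearts. The groups did not overlap, and the log2 fold change was 0.90 (SE 0.23, edgeR FDR 0.0480). Leaving out training heart 3 or 4, or sedentary heart 2, ended the call, as did the atrial score as a covariate (0.76, edgeR FDR 0.423). Furin, a protease that cleaves BMP precursors and many other proteins, ranged from 112 to 132 CPM in training and from 134 to 153 CPM in sedentary hearts, a log2 fold change of −0.20 (SE 0.051, edgeR FDR 0.0482). Its call was lost without training heart 4 or sedentary heart 3, with library totals alone (−0.15, edgeR FDR 0.177), and with the atrial score as a covariate, where the change was −0.28 (edgeR FDR 0.110). Fstl1, a secreted follistatin-like glycoprotein, had a log2 fold change of 0.13 (edgeR FDR 0.485).

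Of 10 intracellular regulators, none was called and 5 were above 0, with a median of −0.0010. Ppm1a, a phosphatase of SMADs, had a log2 fold change of −0.03 (edgeR FDR 0.743), and Fkbp1a, which binds type I receptors, had 0.05 (edgeR FDR 0.596). Of 10 other targets, all were above 0 and Id4 alone was called.

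Id4 belongs to the same family as Id1 and Id3, and its change was not tested against theirs. Its gene (ENSMUSG00000021379, chromosome 13 of GRCm39) was at 1.44, 1.83, 2.49, 2.24 and 1.89 CPM in training hearts 1 to 5 and 1.49, 0.993, 1.304, 0.967 and 1.10 CPM in sedentary hearts 1 to 5. Sedentary heart 1 overlapped training heart 1, and the other 4 training hearts were above every sedentary heart. Its log2 fold change was 0.75 (SE 0.18, 95% interval 0.376 to 1.13, edgeR FDR 0.0360), and 0.47 with the atrial score as a covariate (edgeR FDR 0.464). Id2, chosen after its values were seen to complete the family, was at 15.6 ± 3.07 CPM in training and 11.4 ± 3.80 CPM in sedentary hearts (SD, n = 5 each), a log2 fold change of 0.44 (SE 0.19, edgeR FDR 0.220). Tbx20 and Gata4, cardiac transcription factors, had log2 fold changes of 0.12 (edgeR FDR 0.284) and 0.03 (edgeR FDR 0.814).

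The genes whose pattern over the hearts was most like that of each target, after removal of group means, were sought among 13117 genes that averaged 1 CPM or more. For Id1 these were Mat2a (r = 0.98), Rgs17 (r = 0.96) and Elf2 (r = 0.95). For Id3 they were Uhrf1 (r = 0.94), Smtnl2 (r = 0.93) and Ift57 (r = 0.93), and Ift57 was called higher (log2 fold change 0.22, edgeR FDR 0.0714). Neither target was among the nearest genes of the other, with r = 0.26 between them. These are the highest values of a search over many genes in 10 hearts, and carry no test.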

How the data were processed

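RNA sequencing of 10 mouse hearts, 5 training and 5 sedentary, was used. The authors aligned single reads to GRCm39 with STAR 2.7.10a and deposited, for every gene, the raw count of reads mapped to 1 place, with no normalization or filter. RSEM 1.3.3 expected counts and TPM were likewise deposited. Counts of the reverse strand, which held between 94.9% and 95.6% of counts on either strand, were used. Multimapping reads (17.9% to 19.2%) and reads on no gene (4.15% to 4.89%) were left out. Ensembl identifiers were matched to GENCODE M39 (56017 of 56748).

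The comparison used edgeR 4.0.16 under R 4.3.3, with filterByExpr, TMM scaling, its quasi-likelihood test, Benjamini-Hochberg adjustment over 15454 genes and an FDR below 0.1. CPM use TMM-corrected library sizes, with a prior count of 2 on the log2 scale. Correlations used 100000 permutations, and group differences of ratios an exact permutation test, in scipy 1.17.1. Expected counts were rounded for an alternative, and TPM were used as deposited. The steps were tested on simulated data.

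The members and lists were chosen with earlier results of these data known. Named were the 10 genes, every other pathway gene called, the 2 with the highest mean CPM in each role, and the 3 genes most like Id1 and Id3. Alternatives were DESeq2 1.42.0 (Wald test, or its size factors in edgeR), scaling by totals only, a filter of none or of 10 counts per library, RSEM values, unstranded counts, the mouse number as a block, the atrial score as a covariate, an FDR below 0.05 and each heart left out. The ratios were added after seeing the data. Pairs of libraries within a group differed by more than counting noise (chi-square per degree of freedom 5.71 to 25.1), so errors are between hearts. Each heart was a separate mouse per the labels.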

Additional observations from a re-analysis of the deposited data

Results flagged for a closer look

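A single heart stood apart from the other 4 of its group in 2 of the 52 sets of 5 values searched, by Dixon's test at the 95% level, where chance marks about 1 in 20 sets. Bmp3 was at 0.996 CPM in sedentary heart 4, and between 1.81 and 2.05 CPM in the other sedentary hearts. Smad7, which encodes an inhibitory SMAD, was at 30.8 CPM in training heart 3 and between 19.2 and 21.8 CPM in the other training hearts. That heart also had the highest Id3, Bmp4 and atrial score. None of the 10 listed genes had such a value.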

How the results depend on the processing

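With the atrial score as a covariate, 56 genes were called in all, 0 of the 10 and 1 of the 55 others. The log2 fold changes were then 0.41 for Bmp2, 0.26 for Bmp4, 0.097 for Smad5 and 0.22 for Smad9, none called, and the sign changed for Bmpr2 (−0.012), Id3 (−0.093), Bmp10 (−0.30) and Smad7 (−0.067); beyond the shared trend of score and group, the cause was not tested. Library totals alone moved the median of all genes to 0.053 and the calls from 425 higher and 659 lower to 1029 and 339; Bmpr1a was then called (0.20), Bmp6 (0.0096) and Ppm1a (0.024) changed sign, and the median of the 55 others was 0.15. At an FDR below 0.05, 505 genes were called, and Smad5 (0.15) was not. Smad5 was also lost with no filter (0.14), where Smad1 changed sign (−0.0070).

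Whether the mouse numbers pair the hearts was not settled (correlations of same-numbered deviations from −0.097 to 0.16). For mouse number 1 this correlation was lower than the median with other numbers, and for numbers 2 to 5 it was higher. With the mouse numbers as a replicate block, 1137 genes were called in all and 11 of the 55 others. Smad5 was then not called (0.15), Smad1 changed sign (−0.0017) and Bmp10 was called (1.18). DESeq2's Wald test called 1473 genes, the same number of the 10 as edgeR (4), and 11 of the 55 others. Leaving out each heart gave 512 to 1490 genes in all, 3 to 5 of the 10 and 3 to 9 of the 55 others. The fewest in all came without training heart 4 and without sedentary heart 3, with 512 each. The fewest of the 55 others came without training heart 4. Over these 10 fits, log2 fold changes ranged from −0.027 to 0.050 for Bmpr2 and −0.053 to 0.032 for Smad1. They ranged from 0.13 to 0.17 for Smad5 and from −0.30 to −0.15 for Id1. Bmp2, Bmp4 and Smad9 were called in all 10 of those fits and under every other alternative except the atrial covariate. For Smad9 the edgeR FDR in those 10 fits ran from 0.0215 to 0.0998, at its upper end just under the threshold. The correlation of Id1 with Bmp6 was 0.13 without the 2 hearts farthest from the median, and that of Id3 with Bmp4 was 0.78 within groups. The 4 ratios to Bmp2 and Bmp4 had an adjusted p between 0.0238 and 0.0476 (exact permutation test) with each heart left out. Depth limits the low genes most, and Bmp2 had as few as 62 reads in a library. The causes of the other shifts were not tested.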
